A study of Mus musculus with 12 samples.

Results

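The pallial neurogenic transcription factors are 10 genes, *Emx1*, *Emx2*, *Pax6*, *Lhx2*, *Neurog2*, *Eomes*, *Neurod1*, *Neurod2*, *Neurod6* and *Tbr1*, among the 21938 protein-coding genes of the mouse annotation. They were chosen by name for their place in the making of cortical glutamatergic projection neurons (PNs), and no threshold on a measured value entered the choice. The data are native ChIP-seq of 2 histone marks in cells of the postnatal day 2 cerebral cortex. The pups were *Gad67-GFP* heterozygotes, in which GFP is driven from the *Gad67* (*Gad1*) locus and so marks GABAergic cells. GFP-positive cortical interneurons (CINs) were compared with GFP-negative cells (non-CINs), a mixture defined by the absence of GFP, which the study describes as rich in PNs and glia. Both populations came from the same genotype, no other treatment was applied, and each sample pooled tissue of 2 to 3 litters. For H3K27ac and for H3K27me3 there were 2 replicates of each population, which gives 8 peak lists, and 4 input samples entered only through the peak calling.

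These factors act in an ordered series. *Emx1*, *Emx2*, *Pax6* and *Lhx2* pattern the dorsal telencephalon and are expressed in its radial glial progenitors. *Neurog2*, a proneural basic helix-loop-helix (bHLH) factor, commits progenitors to the glutamatergic lineage and represses the GABAergic one, and *Eomes* (Tbr2) marks the intermediate progenitors that follow. *Neurod1*, *Neurod2* and *Neurod6* are bHLH factors of neuronal differentiation, and *Tbr1* specifies early-born deep-layer PNs. H3K27ac marks active promoters and enhancers, whereas H3K27me3 is deposited by Polycomb repressive complex 2 and marks silenced or poised developmental genes. The marks sit on the same lysine and cannot share a histone tail, so a stretch where both are called in a sorted population carries them on different tails, alleles or cells.

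Each gene was read in a window from 5 kb upstream of its transcription start site (TSS) to its end, in mm10 coordinates. In each list the number of peaks in the window, the base pairs they cover and the percentile of the strongest peak were taken. The percentile ranks the fold enrichment over input within its own list, so that fold values were never compared between lists, and a gene with no peak stands below every percentile. A gene is called higher in a population where both of its replicates exceed both replicates of the other. With 2 lists against 2, an exact two-sided permutation test cannot give *p* below 0.333, so these calls describe the order of the lists and carry no *p* value. Nothing in the labels ties the spread between the replicates to single animals.

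The lists set the limits of these readings. H3K27ac lists held 46040 to 62505 peaks over 40.8 to 56.3 Mb, and H3K27me3 lists held 36662 to 45081 peaks over 34.5 to 49.8 Mb. The numbers of reads behind them were not used here, so absence of a peak means only that none was called. The CIN label matched its markers, in that 7 of 9 GABAergic markers carried more H3K27ac in CINs and none more in non-CINs, although *Lhx6* had no H3K27ac peak in any list. The non-CIN lists did not show the same for glutamatergic neurons, since *Slc17a7*, which encodes the vesicular glutamate transporter of cortical PNs, had no H3K27ac peak in any list, and of the other such markers *Fezf2* was higher in non-CINs but *Slc17a6* was higher in CINs. All 6 astrocyte and radial glia markers were higher in non-CINs, where H3K27ac covered 80245 and 82317 bp of their windows, against 56619 and 52372 bp in CINs. All 6 also had H3K27ac peaks in both CIN lists. These values stand beside every difference given below, and their part in it was not tested. In such bulk samples, fewer cells of a type and less of a mark per cell cannot be told apart.

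The 10 genes showed 3 patterns. The patterning genes *Emx1*, *Emx2*, *Pax6* and *Lhx2* carried H3K27ac in all 4 lists, with H3K27me3 in the same windows. *Neurog2*, *Eomes*, *Neurod1*, *Neurod2* and *Tbr1* lay under H3K27me3 over 72.4% to 100% of their windows in CINs and non-CINs alike, with little or no H3K27ac. *Neurod6* stood apart, with a short H3K27ac peak at its TSS and H3K27me3 in the CIN lists only. In all, 4 of the 10 genes had an H3K27ac peak in all 4 lists, against 56.8% of protein-coding genes, and 2 (*Neurog2* and *Neurod2*) had none in any list, against 33.1%. For H3K27me3, 9 of the 10 had a peak in all 4 lists, against 21.1% of genes, and 0 had none, against 59.2%. The members' H3K27me3 coverage was thus uncommon among genes, whereas their shares for H3K27ac lay nearer to the background. It was not particular to the members. An H3K27me3 peak in all 4 lists was found at 12 of 12 *Dlx* genes and subpallial regulators and at 16 of 19 other pallial and glutamatergic lineage genes. Of 6 astrocyte and radial glia markers, 1 had it.

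**Figure D1:**
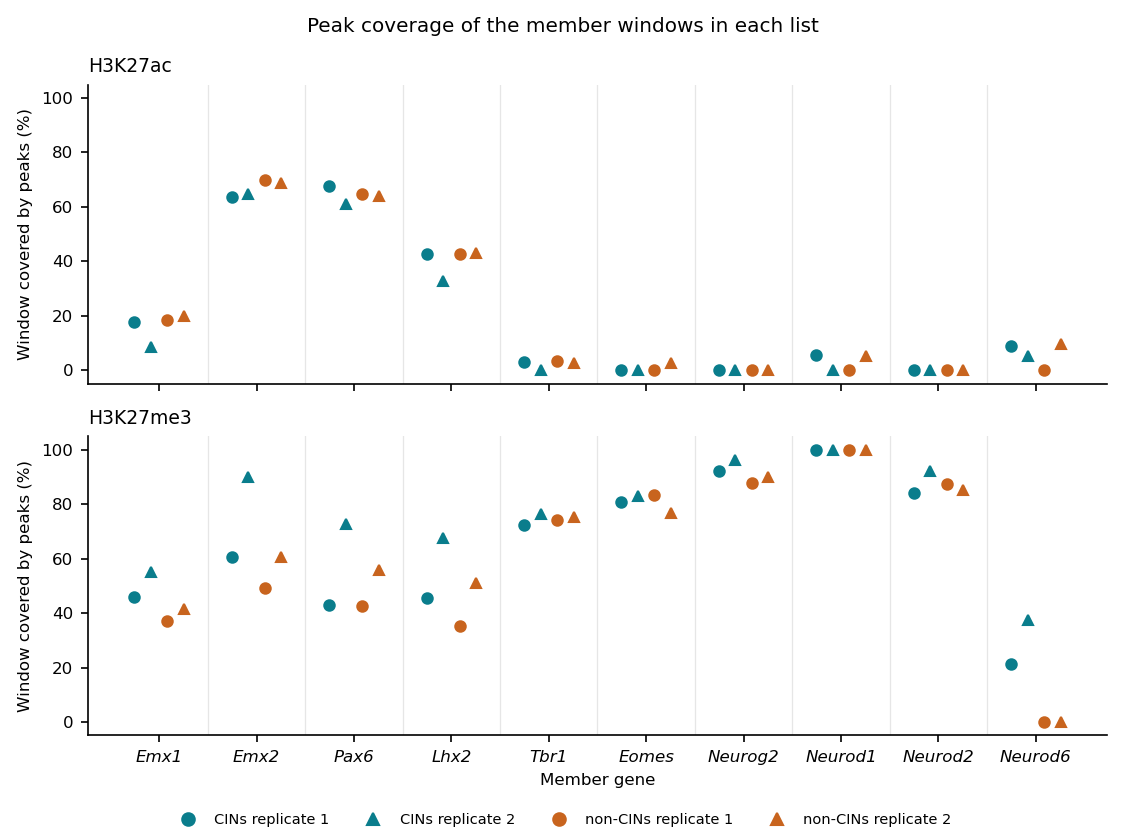
Share of each member's window covered by peaks (%, vertical axis) in the 4 lists of H3K27ac (top) and H3K27me3 (bottom), with CINs in teal, non-CINs in orange, replicate 1 as circles and replicate 2 as triangles. *Emx2* and *Pax6* lie above 60% for H3K27ac, *Neurod1* lies at 100% for H3K27me3 in every list, and *Neurod6* has H3K27me3 in the CIN lists alone.

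*Emx2*, a homeobox gene that sets the size of caudal and medial cortical areas (chr19:59458372-59465357, plus strand), was among the most widely acetylated genes in both populations. H3K27ac covered 7652 and 7758 bp of its 11986 bp window in the CIN lists, against 8357 and 8261 bp in the non-CIN lists. The non-CIN values were the higher, by 604 bp on average, and the populations did not overlap. The strongest peak ranked at the 74.7 and 73.5 percentiles of the CIN lists and at the 89.3 and 96.0 percentiles of the non-CIN lists. The populations were thus apart by this measure as well. Once covered length was divided by the Mb covered by the whole list, the populations overlapped, at 135.9 and 190.0 bp per Mb in CINs, against 165.7 and 187.9 in non-CINs. Only 0.173% of genes had as large a share of their window under H3K27ac in CINs, and 0.128% in non-CINs. The acetylated stretch, 2 or 3 peaks per list, crossed the TSS in all 4 lists and ran past the end of the gene. H3K27me3 flanked it and entered it, over 7266 and 10789 bp in the CIN lists, against 5892 and 7282 bp in the non-CIN lists. The CIN and non-CIN lengths overlapped narrowly, whereas the H3K27me3 percentiles did not overlap and were the higher in CINs, at 93.0 and 93.7 against 81.3 and 90.7. The percentile call was lost within 2 kb of the TSS.

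*Emx1*, the second *Emx* homeobox gene and a marker of pallial progenitors and their progeny (chr6:85187438-85204462, plus strand), was acetylated more sparsely. H3K27ac covered 3892 and 1844 bp of 22025 bp in the CIN lists, against 4074 and 4332 bp in the non-CIN lists. Non-CINs were the higher, but CIN replicate 1 lay close below non-CIN replicate 1, and the low value was that of CIN replicate 2. Each list had 3 or 4 peaks in the window, and the strongest stood at percentiles of 71.8 and 54.6 in CINs, against 78.6 and 61.0 in non-CINs, which overlapped. Within each replicate number the non-CIN percentile was the higher. The list of CIN replicate 2 had no peak over the TSS, its nearest lying 1206 bp away, while the other 3 lists had one. The call was lost in a window of 2 kb either side of the TSS and with 20 kb added on either side of the gene. H3K27me3 went the other way, over 10144 and 12189 bp in the CIN lists, against 8184 and 9126 bp in the non-CIN lists, with the strongest peak at the 95.6 and 97.7 percentiles in CINs, against the 75.7 and 92.7 percentiles in non-CINs. Both H3K27me3 measures were the higher in CINs without overlap. The covered lengths of the 2 marks at *Emx1* were thus apart in opposite directions.

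The promoters of *Emx1*, *Emx2* and *Neurod6* are shown because these are 3 of the 4 genes that differed between the populations by both measures of a mark, the other being *Lhx2*. Each is the 250 bp before the GENCODE TSS in mm10, written 5′ to 3′ on the strand of the gene, with CG dinucleotides in capitals.
*Emx1* promoter, chr6:85187188-85187437, plus strand: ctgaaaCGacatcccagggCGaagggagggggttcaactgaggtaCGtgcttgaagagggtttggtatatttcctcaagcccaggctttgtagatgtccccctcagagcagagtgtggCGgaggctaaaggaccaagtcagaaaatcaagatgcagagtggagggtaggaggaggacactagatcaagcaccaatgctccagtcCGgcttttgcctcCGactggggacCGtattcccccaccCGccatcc
*Emx2* promoter, chr19:59458122-59458371, plus strand: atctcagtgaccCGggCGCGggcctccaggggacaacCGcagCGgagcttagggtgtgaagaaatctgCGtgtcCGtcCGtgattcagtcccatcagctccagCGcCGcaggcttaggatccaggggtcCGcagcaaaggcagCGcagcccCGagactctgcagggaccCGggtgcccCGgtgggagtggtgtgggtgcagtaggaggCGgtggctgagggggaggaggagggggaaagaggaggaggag
*Neurod6* promoter, chr6:55681264-55681513, minus strand: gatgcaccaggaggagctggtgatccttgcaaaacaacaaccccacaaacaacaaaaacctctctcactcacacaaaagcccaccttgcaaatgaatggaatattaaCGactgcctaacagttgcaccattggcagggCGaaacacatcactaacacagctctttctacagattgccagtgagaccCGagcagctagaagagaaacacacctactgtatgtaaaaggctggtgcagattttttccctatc
These hold 8, 16 and 3 CG dinucleotides, where the median over all protein-coding genes was 8. The *Emx2* stretch overlaps an exon of *Emx2os*, a noncoding antisense gene, and the other 2 are intergenic. CpG-dense promoters are common targets of Polycomb. Within 500 bp of the TSS, 6 of the 10 members were CpG-rich (observed over expected CpG of at least 0.6 and GC content of at least 50%), against 44.4% of genes, and the lowest of the 10 was *Neurod6*, at an observed over expected ratio of 0.205.

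*Pax6*, the paired-box regulator of radial glia and of the pallial to subpallial boundary (chr2:105668900-105697364, plus strand), had the longest acetylated stretch of the members. H3K27ac covered 22669 and 20433 bp of 33465 bp in the CIN lists, against 21680 and 21428 bp in the non-CIN lists, and the non-CIN values lay between the CIN values. The strongest peak ranked higher in non-CINs, at the 94.2 and 96.4 percentiles against 88.6 and 89.6. *Pax6* therefore differed between the populations in the rank of its acetylation, while the extents overlapped. H3K27me3 was densest around the TSS and continued in short peaks through the acetylated gene body, 12 to 14 peaks per list. It covered 14416 and 24305 bp in the CIN lists, against 14232 and 18686 bp in the non-CIN lists, which overlapped, and its percentiles of 96.4 and 97.2 in CINs against 95.2 and 94.3 in non-CINs did not.

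*Lhx2*, a LIM-homeobox selector gene of cortical identity (chr2:38339281-38369733, plus strand), differed by both H3K27ac measures, though narrowly. Covered length was 15090 and 11632 bp of 35453 bp in the CIN lists, against 15115 and 15255 bp in the non-CIN lists, so that CIN replicate 1 nearly reached non-CIN replicate 1. The strongest peak stood at percentiles of 83.0 and 80.1 in CINs, against 87.3 and 85.4 in non-CINs. The CIN lists held 7 and 9 peaks there, against 8 and 5 for the non-CIN lists, and the strongest were of different length. In non-CINs single peaks of 8387 and 9003 bp began 11842 and 11857 bp into the gene, whereas in CINs the strongest peaks were 1002 and 1498 bp long and began 10587 and 10661 bp into it. The covered-length call was lost with peaks of −log10 *q* of at least 4, with the strongest 30000 peaks of each list, with peaks 500 bp or less apart merged and within 2 kb of the TSS, where the percentile call was lost as well. H3K27me3 covered 16199 and 24027 bp in the CIN lists, against 12530 and 18150 bp in the non-CIN lists, in 10 to 17 peaks per list. These lengths overlapped, as did the percentiles of 93.1 to 95.2.

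**Figure D2:**
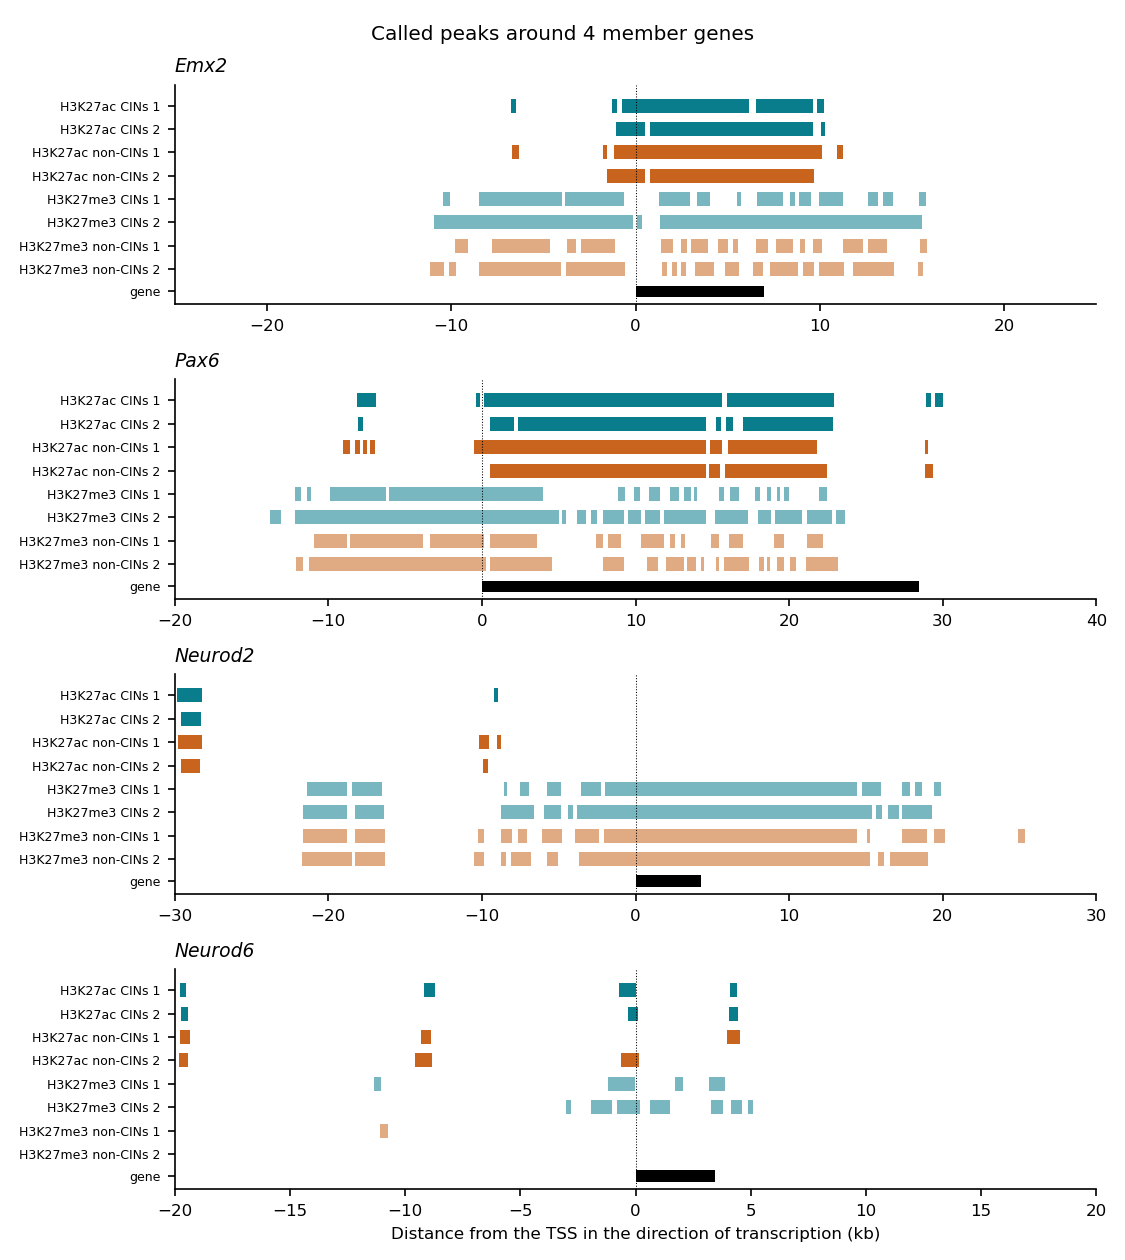
Called peaks of each of the 8 lists (rows) around *Emx2*, *Pax6*, *Neurod2* and *Neurod6*, against distance from the TSS in kb in the direction of transcription, with CINs in teal, non-CINs in orange, H3K27ac in full and H3K27me3 in pale colour and the gene as a black bar. H3K27ac spans *Emx2* and most of *Pax6* in all 4 lists, and *Neurod2* lies inside a single H3K27me3 peak with none. *Neurod6* has H3K27me3 in CINs only, over its TSS in replicate 2 and ending 39 bp upstream of it in replicate 1.

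At *Emx1*, *Emx2*, *Pax6* and *Lhx2* a large part of the acetylated length also lay in an H3K27me3 peak of the same population and replicate number. At *Emx1* that part was all of the acetylated length in both CIN lists, and 65.9% and 66.0% in non-CINs. At *Emx2* it was 46.3% and 88.2% in CINs, against 41.1% and 50% in non-CINs. *Lhx2* gave 63.6% and 82.2% in CINs, against 35.3% and 58.9% in non-CINs. *Emx1* and *Lhx2* therefore had the larger doubly marked part in CINs without overlap between the populations. At *Emx2* and *Pax6* the populations overlapped, and *Pax6* gave 41.3% and 82.6% in CINs, against 45.3% and 59.1% in non-CINs. The short acetylated stretches of *Tbr1*, *Eomes* and *Neurod1*, where called, lay wholly in H3K27me3. Over the windows of all protein-coding genes together, 1.22% to 2.39% of the acetylated length was doubly marked, and over the 2406 genes with peaks of both marks in all 4 lists, as the 4 patterning genes have, it was 4.33% to 7.40%. Wide double marking was not limited to the members. At the subpallial gene *Sp8*, H3K27me3 covered all 11248 bp of the window in every list. Its H3K27ac of 6062 and 4590 bp in CINs was thus wholly doubly marked. At the Notch effector gene *Hes5*, by contrast, H3K27ac covered 4566 and 3212 bp in CINs and H3K27me3 0 and 539 bp. The doubly marked share was not taken over the comparison lists.

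At *Neurod1*, *Neurog2*, *Neurod2*, *Eomes* and *Tbr1*, H3K27me3 covered most of the window and H3K27ac little or none of it. *Neurod1*, a bHLH factor of newly born neurons (chr2:79452521-79456751, minus strand), whose promoter lies in an intron of *Cerkl*, had all 9231 bp of its window inside a single H3K27me3 peak in each of the 4 lists. Those peaks were 14766 to 16815 bp long and ranked at the 99.0 and 99.3 percentiles in CINs, against the 99.2 and 99.3 percentiles in non-CINs. Only 0.41% of genes in CINs and 0.406% in non-CINs were covered as completely. Small H3K27ac peaks inside this domain totalled 513 bp in CIN replicate 1 and 467 bp in non-CIN replicate 2, at percentiles of 26.0 and 29.2, and the other 2 lists had none.

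*Neurog2* (chr3:127633135-127635631, plus strand) had no H3K27ac peak in its window in any list. H3K27me3 covered 6918 and 7230 bp of 7497 bp in the CIN lists, against 6590 and 6748 bp in the non-CIN lists, with percentiles of 98.8 and 99.5 against 99.0 and 99.5. The covered length was the higher in CINs, and this order was lost with 20 kb added on either side, with scaling by list and with merged peaks. Its nearest H3K27ac peak lay 18758 and 72103 bp from the TSS in the CIN lists, against 7154 and 18876 bp in the non-CIN lists. *Neurod2* (chr11:98325415-98329648, minus strand) also had no H3K27ac in any list, and H3K27me3 covered 7754 and 8508 bp of 9234 bp in the CIN lists, against 8082 and 7888 bp in the non-CIN lists. These lengths overlapped, and the strongest *Neurod2* peak was the only H3K27me3 peak among the members that ranked higher in non-CINs, at 99.2 and 98.7 against 98.2 and 98.3.

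*Eomes* (chr9:118478212-118486132, plus strand) carried H3K27me3 over 10436 and 10741 bp of 12921 bp in the CIN lists, against 10797 and 9910 bp in the non-CIN lists, with percentiles of 98.5 to 99.2, and the populations overlapped by both measures. Its one H3K27ac peak was 321 bp long, in non-CIN replicate 2, at the 6.1 percentile of that list. In the other 3 lists the nearest H3K27ac peak began 27675 to 27771 bp from the TSS. *Tbr1* (chr2:61802930-61814114, plus strand) had the highest-ranked H3K27me3 of the members, at the 99.4 and 99.6 percentiles in CINs, against the 99.3 and 99.6 percentiles in non-CINs. It covered 11710 and 12355 bp of 16185 bp in the CIN lists, against 11987 and 12199 bp in the non-CIN lists, so the non-CIN values lay between the CIN values. H3K27ac at *Tbr1* amounted to 1 peak of 392 to 536 bp in 3 lists and none in CIN replicate 2, at percentiles of 39.6 in CIN replicate 1 and of 34.1 and 1.65 in non-CINs.

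None of the H3K27ac peaks in the windows of these 5 genes was left when only peaks with −log10 *q* of at least 4 were kept, while their H3K27me3 stayed at 7754 bp or more in each list for *Eomes*, *Neurod1*, *Neurod2* and *Tbr1* and at 6590 bp or more for *Neurog2*. *Tbr1* and *Neurod2* are expressed in immature cortical PNs, which the GFP-negative gate does not remove. The non-CIN lists gave no H3K27ac domain at either gene, nor at *Slc17a7*. Whether the share of PNs among the sorted cells bears on this was not tested.

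**Figure D3:**
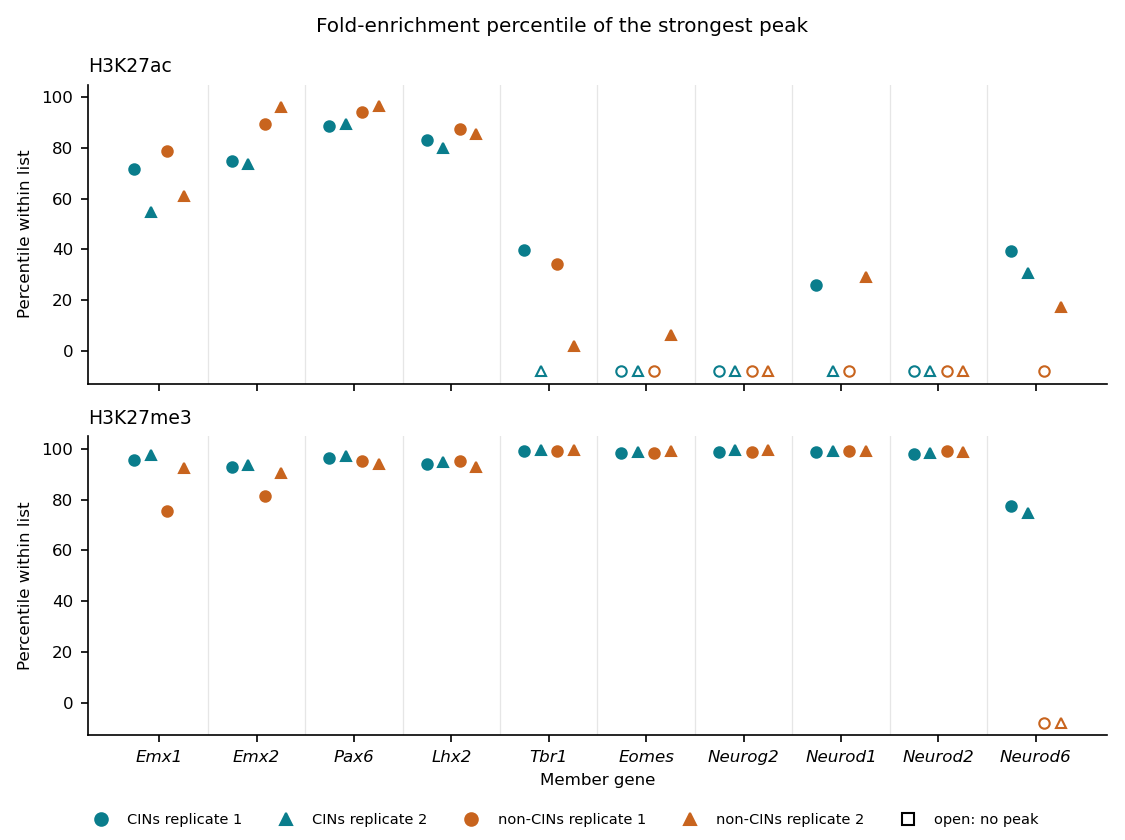
Percentile of the strongest peak in each member's window within its own list (vertical axis) for H3K27ac (top) and H3K27me3 (bottom), with CINs in teal, non-CINs in orange, replicate 1 as circles and replicate 2 as triangles, and open symbols below 0 for no peak. H3K27me3 at *Tbr1*, *Eomes*, *Neurog2*, *Neurod1* and *Neurod2* lies between 98.2 and 99.6 in every list, and H3K27ac at *Emx2*, *Pax6* and *Lhx2* is the higher in non-CINs.

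*Neurod6* (Nex), a bHLH gene of postmitotic PNs (chr6:55677822-55681263, minus strand), was the member whose H3K27me3 differed most clearly between the populations. H3K27me3 covered 1805 and 3171 bp of its 8442 bp window in CINs, in 3 and 5 peaks, and none was called in either non-CIN list. The nearest H3K27me3 peak to its TSS lay 10721 bp away in non-CIN replicate 1 and 290538 bp away in non-CIN replicate 2. The CIN peaks were of middling rank, at the 77.5 and 74.6 percentiles, well below those of the other bHLH genes. With −log10 *q* of at least 4, 269 and 1182 bp were left in CINs.

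H3K27ac at *Neurod6* was a peak at the TSS of 750 and 450 bp in CINs and 804 bp in non-CIN replicate 2, and non-CIN replicate 1 had no peak in the window. In that list the nearest peak began 3988 bp downstream of the TSS, just past the end of the gene. The peak at the TSS stood at percentiles of 39.5 and 30.8 in CINs and 17.1 in non-CIN replicate 2, which made *Neurod6* the only member with the higher H3K27ac rank in CINs. The order turned when 20 kb were added on either side of the gene, and no call was left with −log10 *q* of at least 4 or with the strongest 30000 peaks of each list. In CINs the acetylated stretch at the TSS shared 697 of 750 bp and 450 of 450 bp with H3K27me3 peaks.

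**Figure D4:**
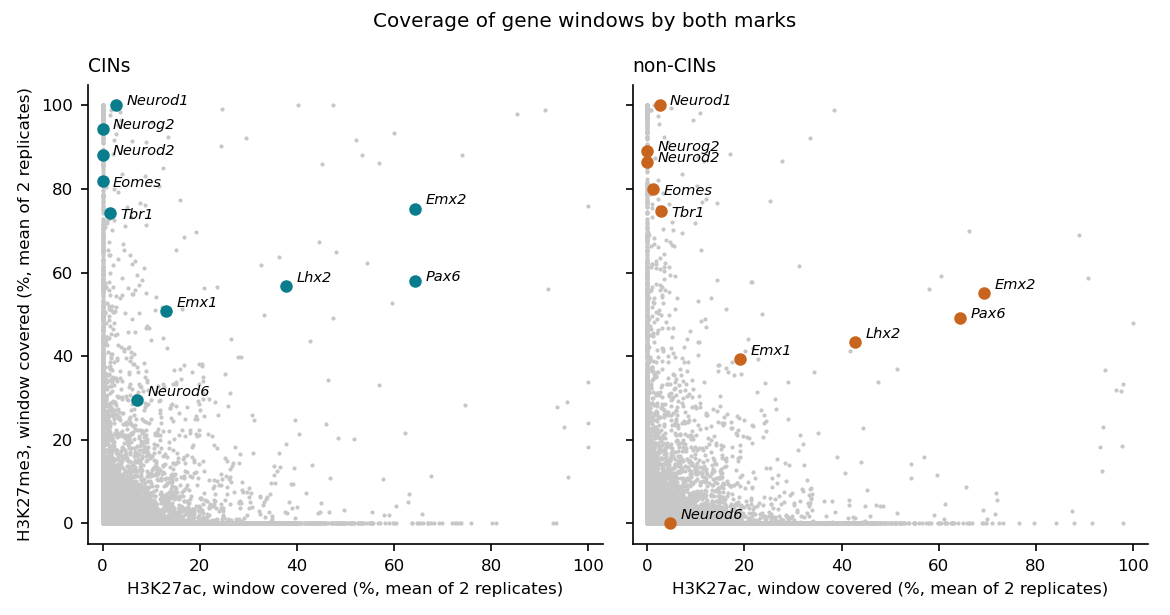
Share of the window covered by H3K27ac (horizontal axis) and by H3K27me3 (vertical axis), in % as means of 2 replicates, for all protein-coding genes (grey points) and the 10 members (coloured and named), in CINs (left) and non-CINs (right). The patterning genes lie in the sparse middle of the plot with both marks, 5 members lie along the H3K27me3 axis, and *Neurod6* moves from 29.5% H3K27me3 in CINs to 0 in non-CINs.

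Counted over the 10 genes, H3K27ac covered more in non-CINs at 3 (*Emx1*, *Emx2* and *Lhx2*) and more in CINs at 0. Of all protein-coding genes 12% were called in the direction of non-CINs and 12.1% in that of CINs, or 18.0% and 18.1% of the genes with a peak in at least 1 list. By percentile, 3 members (*Emx2*, *Pax6* and *Lhx2*) ranked higher in non-CINs and 1 (*Neurod6*) in CINs, against backgrounds of 10.4% and 13.9% of all genes and 15.6% and 20.8% of genes with a peak. For H3K27me3, 3 members (*Emx1*, *Neurog2* and *Neurod6*) were covered more in CINs and 0 in non-CINs. The background was 2.99% of all genes toward CINs and 4.53% toward non-CINs, or 7.34% and 11.1% of genes with a peak. By H3K27me3 percentile 4 members (*Emx1*, *Emx2*, *Pax6* and *Neurod6*) ranked higher in CINs and 1 (*Neurod2*) in non-CINs, against 3.92% and 5.64% of all genes and 9.62% and 13.8% of genes with a peak. More members were called toward CINs for H3K27me3 than these shares would give in 10 genes, and each count rests on 2 replicates. The shares include genes with a peak in only 1 list, which cannot be called in either direction. No share was taken over the 4621 genes with H3K27me3 peaks in all 4 lists, as 9 of the members have. The excess is therefore not measured against genes of like H3K27me3 coverage. The median difference in covered length, non-CINs minus CINs, was 81.75 bp for H3K27ac and −1422.8 bp for H3K27me3 over all 10 members, and 0 for both marks over all genes, many of which had no peak. Among genes with a peak in at least 1 list it was 188 bp for H3K27ac over 8 members, against −13.5 bp over all such genes. For H3K27me3, of which all 10 members had a peak, the median over all such genes was 94.5 bp. The H3K27me3 lists covered 34.5 and 44.2 Mb in CINs, against 39.4 and 49.8 Mb in non-CINs, so that CINs were the shorter within each replicate number but the populations overlapped. When covered length was divided by the Mb covered by each list, 5 members were the higher in CINs, namely *Emx1*, *Emx2*, *Pax6*, *Lhx2* and *Neurod6*. This scaling also raised the background toward CINs, to 6.22% of all genes, with 3.82% toward non-CINs, or 15.3% and 9.36% of genes with a peak. Compared within each replicate number, H3K27me3 covered more in CINs at 6 members, which adds *Emx2*, *Pax6* and *Lhx2* to *Emx1*, *Neurog2* and *Neurod6*, and in non-CINs at 0. The background of that comparison was 6.81% of all genes toward CINs and 10.3% toward non-CINs, or 16.7% and 25.4% of genes with a peak. By that comparison *Emx1*, *Emx2* and *Lhx2* each had more H3K27ac in non-CINs and more H3K27me3 in CINs, as had 1.94% of all genes and 6.25% of the genes with a peak of each mark.

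Among 19 other pallial and glutamatergic lineage genes, H3K27ac covered more in non-CINs at 4 and in CINs at 5, and H3K27me3 covered more in non-CINs at 2 and in CINs at 5. By percentile, H3K27ac ranked higher in non-CINs at 6 and in CINs at 1, and H3K27me3 ranked higher in non-CINs at 3 and in CINs at 2. *Gli3*, a patterning factor of the dorsal telencephalon, had H3K27ac over 27975 and 16269 bp in the CIN lists, against 34996 and 26159 bp in the non-CIN lists, which overlapped. *Bcl11b* (Ctip2), a factor of subcortical PNs that also acts in CINs, had 20159 and 8883 bp in the CIN lists, against 2325 and 981 bp in the non-CIN lists. Of the 19, 4 had no H3K27ac peak in any list, namely the bHLH genes *Neurog1*, *Neurod4* and *Nhlh2* and the transporter gene *Slc17a7*. *Neurod4* had no H3K27me3 peak either, unlike *Neurog2* and *Neurod2*, and the bHLH genes *Hes1* and *Hes5*, effectors of Notch signalling, had H3K27ac in all 4 lists.

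Among 12 *Dlx* genes and subpallial regulators, which direct the GABAergic fate, H3K27ac covered more in CINs at 6 and in non-CINs at 0. *Sp9*, which encodes a zinc finger factor of the ganglionic eminences, had 11320 and 8913 bp in CINs and none in non-CINs. In contrast, none of the members had H3K27ac in both lists of one population and in neither list of the other. H3K27me3 covered 74.7% and 83.4% of the summed *Dlx* and subpallial windows in CINs, against 78.4% and 83.0% in non-CINs, and for the members it covered 57.6% and 73.6% in CINs, against 52.6% and 59.6% in non-CINs.

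**Figure D5:**
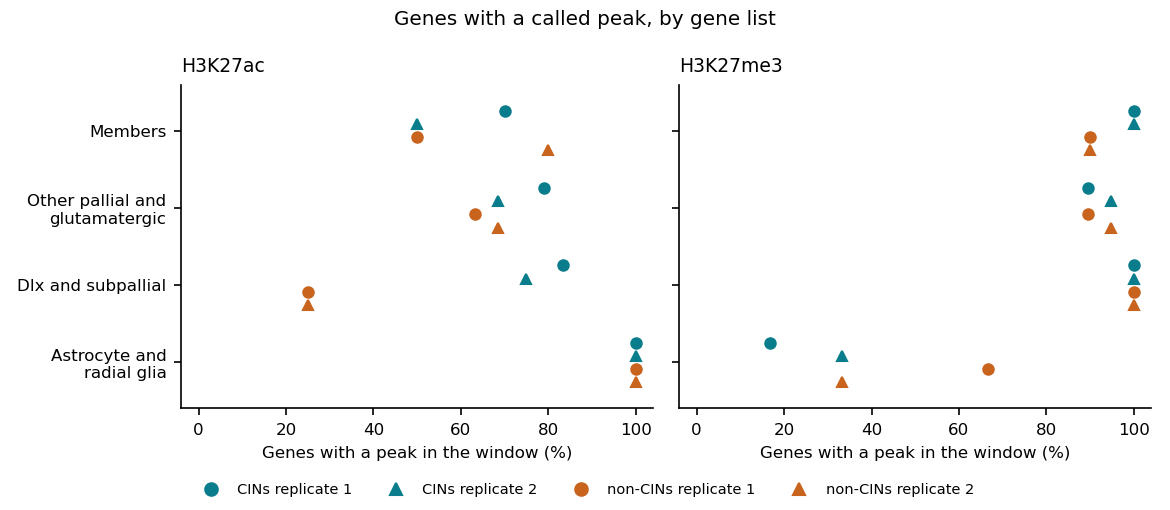
Share of the genes of each list (rows) with a called peak in the window (%, horizontal axis) for H3K27ac (left) and H3K27me3 (right), with CINs in teal, non-CINs in orange, replicate 1 as circles and replicate 2 as triangles. For H3K27ac the *Dlx* and subpallial genes separate the populations, whereas the members and the other pallial genes do not.

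H3K27ac regions found in one population alone were then sought within 100 kb of each gene body. A region counted where merged peaks of both replicates overlapped and no peak of the other population with that replicate number overlapped them. Across the genome, 4181 regions were CIN-only and 2775 non-CIN-only. Near the members lay 3 CIN-only regions, 1 each for *Pax6*, *Neurod2* and *Neurod6*, and 2 non-CIN-only regions, 1 each for *Neurod1* and *Neurod2*. Thus 3 of 10 members had a CIN-only region, against 24.9% of protein-coding genes, and 2 of 10 had a non-CIN-only region, against 24.0%, which is close to the background. *Emx1*, *Emx2*, *Lhx2*, *Tbr1*, *Eomes* and *Neurog2* had neither. With −log10 *q* of at least 4 the members changed, to 3 non-CIN-only regions at *Emx1*, *Eomes* and *Neurod2* and 2 CIN-only regions at *Pax6*. Most acetylation near the members was therefore not limited to one population. Of 88 merged H3K27ac stretches around them, 34 (38.6%) were in all 4 lists and 26 (29.5%) in a single list, against 40.9% and 31.0% over all genes.

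The strongest of these regions lay in an intron of *Elp4*, 84796 bp downstream of the *Pax6* TSS. *Elp4* is known to hold distal enhancers of *Pax6*. The region ranked at the 64.4 and 75.5 percentiles of the CIN lists, and the nearest non-CIN peaks lay 32285 and 32218 bp away. The CIN-only region near *Neurod6*, 64694 bp upstream in intergenic sequence, was only 38 bp where its replicates overlapped and ranked at 40.3 and 41.8. That near *Neurod2*, 148 bp long and 39243 bp downstream, ranked at 35.0 in replicate 1 and 1.14 in replicate 2. None of the 3 CIN-only regions remained when the replicates had to share 50% of both merged peaks.

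The non-CIN-only region near *Neurod2* lay 9744 bp upstream of its TSS, between *Neurod2* and *Ppp1r1b*, and ranked at the 22.9 and 31.3 percentiles. Its end away from the TSS touched H3K27me3 peaks of both non-CIN lists and none of the CIN lists. A CIN H3K27ac peak lay 399 bp away in replicate 1, whereas in replicate 2 the nearest was 18384 bp away. The region near *Neurod1* lay 81138 bp upstream of it and ranked at 12.3 and 13.6. Both non-CIN-only regions were thus weak in their own lists.

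The sequences of 4 of the 5 regions follow, without the CIN-only region of *Neurod2*, which had the lowest rank. They are shown because these 5 regions were the ones near the members with H3K27ac in one population alone by this definition. Each is the shared stretch or its middle 300 bp, on the plus strand of mm10. Capitals mark CAGATG and CAGCTG (E-boxes of proneural bHLH factors), TAATTA (homeodomain) and GGTGTGA (T-box), searched on both strands.
CIN-only region near *Pax6*, chr2:105753546-105753845: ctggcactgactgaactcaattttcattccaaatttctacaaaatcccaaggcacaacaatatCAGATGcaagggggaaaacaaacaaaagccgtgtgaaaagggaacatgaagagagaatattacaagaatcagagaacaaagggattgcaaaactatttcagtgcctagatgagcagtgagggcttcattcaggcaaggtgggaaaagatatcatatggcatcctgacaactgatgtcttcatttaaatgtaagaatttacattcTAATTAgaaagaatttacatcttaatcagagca
CIN-only region near *Neurod6*, chr6:55745938-55745975: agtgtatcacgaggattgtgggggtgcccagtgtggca
Non-CIN-only region near *Neurod2*, chr11:98339242-98339541: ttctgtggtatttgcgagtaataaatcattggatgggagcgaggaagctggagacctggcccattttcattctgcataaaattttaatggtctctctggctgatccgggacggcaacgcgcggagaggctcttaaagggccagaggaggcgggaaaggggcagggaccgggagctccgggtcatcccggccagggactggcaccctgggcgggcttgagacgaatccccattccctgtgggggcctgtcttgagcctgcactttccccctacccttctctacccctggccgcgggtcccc
Non-CIN-only region near *Neurod1*, chr2:79537739-79538038: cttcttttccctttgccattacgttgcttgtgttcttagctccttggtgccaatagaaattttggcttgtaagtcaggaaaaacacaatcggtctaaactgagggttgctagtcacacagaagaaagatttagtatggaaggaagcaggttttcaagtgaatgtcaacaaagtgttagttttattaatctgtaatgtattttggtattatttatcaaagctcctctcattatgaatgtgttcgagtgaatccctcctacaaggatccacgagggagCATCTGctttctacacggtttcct
The *Pax6* region holds 1 CAGATG and 1 TAATTA, and the *Neurod1* region holds 1 CAGATG, read as CATCTG on the plus strand. The 300 bp around the centre of the CIN-only region near *Neurod2*, not printed, hold 2 CAGATG. Among all CIN-only regions, 26.5% of the 300 bp centres hold CAGATG and 15.5% hold TAATTA, and among non-CIN-only regions 19.6% hold CAGATG. A letter match is not a bound site. In the 250 bp promoters, CAGATG occurred at 3 members (*Tbr1*, *Neurod1* and *Neurod2*), against 13.0% of all genes, and CAGCTG at *Tbr1* alone, against 12.3%. TAATTA occurred at none of the 10, against 4.99%, and GGTGTGA at *Emx2* alone, against 3.23%.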

How the data were processed

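Native ChIP-seq of CINs and non-CINs gave 8 broad peak lists, 2 replicates for each mark and population. Reads were aligned by the authors with BWA mem (mm10) and filtered on mapping quality with samtools. MACS2 (version 2.2.7 per the labels) then called broad peaks in every replicate over its own input, without a model or local background. The fold enrichment of ChIP over input, the −log10 *p* and −log10 *q* values and the score of each peak are as deposited by the authors' peak caller. None is a read count, and the depth was not used here.

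Windows came from the GENCODE vM21 basic annotation. Covered length is the union of deposited peaks within the window, and percentiles are average ranks of fold enrichment within a list. Regions found in one population used peaks merged at gaps of 500 bp or less, a minimum overlap of 1 bp and the replicate number as a block. All 10 members are named. Of the comparison lists, genes with the largest and smallest difference in covered length are named, and *Slc17a7*, *Lhx6*, *Neurog1*, *Neurod4*, *Nhlh2*, *Hes1*, *Hes5* and *Sp8* were added after their values were seen. Beside the genes named, 1 gene that this rule would name is not reported here. The members and lists were chosen with earlier results of these data known. Interval operations were tested on simulated data against bedtools 2.31.1. Python 3.11.15, NumPy 2.4.6 and pysam 0.24.0 were used. Sequences came from the GRCm38.p6 assembly. Other windows, peak thresholds, list scaling, region distances, overlaps, blocks and single replicates were tried as alternatives, and merging of peaks before counting was chosen after seeing the data.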

Additional observations from a re-analysis of the deposited data

How the results depend on the processing

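The presence of H3K27ac in all 4 lists at 4 members and of H3K27me3 at 9 stayed within 1.5 times of these counts under every alternative run for them, which leaves out the replicate block and the scaling by list. Over all counts, 74 alternative values stayed within that range and 26 did not. Within 2 kb of the TSS, H3K27ac covered more in non-CINs at 1 member and H3K27me3 more in CINs at 5. The higher H3K27ac percentile in CINs was left at 0 members with 20 kb on either side of the gene, with −log10 *q* of at least 4 and with the strongest 30000 peaks, and at *Neurod6* it turned, to 9.43 percentile points higher in non-CINs, with the added 20 kb. Scaled by list, H3K27me3 covered more in CINs at 5 members. With the replicate block, in which the populations are compared within each replicate number, H3K27me3 covered more in CINs at 6 members and its percentile was higher in non-CINs at 2. For H3K27ac the block added *Tbr1* by covered length and *Emx1* by percentile, both toward non-CINs. The deviations of same-numbered samples correlated at 0.56 for H3K27ac and 0.918 for H3K27me3 covered length, but the labels do not say what a number shares. The regions within 50 kb numbered 1 CIN-only and 1 non-CIN-only, within 200 kb 10 and 5, and with a shared 50% of both merged peaks no CIN-only region (0) was left. Without replicate 1 or without replicate 2, when 1 list stood for each population and any difference counted, H3K27ac covered more in non-CINs at 4 to 8 members and in CINs at 0 to 3, and its percentile was higher in non-CINs at 4 to 7 and in CINs at 1 to 3. Likewise H3K27me3 covered more in CINs at 6 to 9 members and in non-CINs at 0 to 3, and its percentile was higher in CINs at 6 and in non-CINs at 4. Non-CIN-only regions numbered 10 to 21 and CIN-only regions 6 to 21. Fewer samples enter those counts, and the cause of the other changes was not tested. A member called on both replicates keeps its direction within replicate numbers and with 1 replicate by construction. Of the 81 other alternative values of single members, 66 kept their direction and call, 14 lost the call and 1 reversed. The counting error behind a called peak was not estimated, since reads were not used, and a mark too weak to be called counts as missing.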

Other observations

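Markers of other cortical cell types were read in the same windows. H3K27ac covered more in non-CINs at 1 of 5 oligodendrocyte lineage markers and more in CINs at 1, and all 5 had H3K27ac peaks in all 4 lists. Of 4 microglia markers, 2 were higher in non-CINs and 0 in CINs, and *Aif1* had no H3K27ac peak in any list. Of 4 endothelial markers, 0 were higher in either population, and *Cldn5* had no H3K27ac peak in any list. H3K27me3 covered more in non-CINs at 4 of the 12 *Dlx* and subpallial genes and ranked higher there at 8, whereas neither measure was higher in CINs for any of the 12. For the members the H3K27me3 calls went mostly toward CINs. The same was seen at 2 of the 5 oligodendrocyte lineage markers, with 1 higher in non-CINs, by covered length and by percentile alike. *Olig2*, a bHLH factor of that lineage, had H3K27me3 over 7212 and 7287 bp in the CIN lists, against 5641 and 5691 bp in the non-CIN lists, and *Olig1* had 4884 and 4768 bp, against 4057 and 3980 bp. By covered length, H3K27me3 was higher in CINs at 1 of the 6 astrocyte and radial glia markers and at 0 of the 4 microglia and 0 of the 4 endothelial markers. The part of such cells in the members' values was not tested.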
